A study of Mus musculus with 8 samples.

Results

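Potassium, calcium and sodium channel subunits set the electrical behaviour of islet cells. They were taken as every gene of the deposited table whose symbol begins with Kcn or with Cacna, Cacnb or Cacng, or reads Scn, a number and a or b, plus the sulfonylurea receptors Abcc8 and Abcc9. The rule found 136 genes of 23366 in the table (0.582%), counted in 8 RNA libraries. They hold RNA of sorted pancreatic beta cells from 8- to 10-week-old NOD mice, which are prone to spontaneous autoimmune diabetes. No treatment or allele is named in the labels. Bottom, the first of 2 sorted populations, had 4 libraries, and top also had 4. Each population had 2 libraries in batch 1 (bottom 1, bottom 2, top 1 and top 2) and 2 in batch 2 (bottom 3, bottom 4, top 3 and top 4). Each library was amplified from about 1000 cells, and the labels do not say how many animals gave them or what gate divided bottom from top. Since separate animals are not stated, the p-values describe how these libraries vary, and some of that variation may be technical.

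In a beta cell, rising ATP closes the KATP channel, an inward rectifier (Kcnj11) in complex with the sulfonylurea receptor (Abcc8). The membrane then depolarises, voltage-gated calcium channels open, and calcium entry triggers insulin release. Voltage-gated and calcium-activated potassium channels repolarise the cell, two-pore potassium channels carry a background current, and sodium channels add to the upstroke of action potentials. Delta cells and alpha cells, the somatostatin and glucagon cells of the islet, are electrically excitable too and share the KATP channel.

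The label of beta cells held less well for bottom than for top. Insulin transcripts took 2.75% to 7.16% of the counts in bottom and 26.6% to 40.1% in top. Of 10 tested beta cell markers, 4 were lower in bottom and none higher (edgeR quasi-likelihood test, adjusted p under 0.05), and Mafa had 0 counts in all 8 libraries. Delta cell markers summed to 33540 to 57900 CPM (counts relative to the scaled library size) in bottom and 2697 to 5346 CPM in top, with 3 of 6 tested markers higher and none lower. Total counts were 7256042 to 11262368 in bottom and 6657639 to 9366913 in top. These are bulk libraries, so fewer cells of a type and less RNA per cell cannot be told apart.

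Of the 136 genes, 44 had enough counts to be tested, 64 had counts but were too low or too uneven, and 28 had 0 counts in every library. The 28 included Kcnd3 and Kcnk4. Among the 44, 1 was lower in bottom (Kcnj12) and 0 were higher at an adjusted p under 0.05. Over all 11721 genes tested, 0.444% were called in either direction and 0.162% as lower in bottom. Unadjusted p-values under 0.05 were seen for 7 of the 44 (15.9%), against 10.3% of all genes tested. DESeq2 called 2 members lower and 1 higher, and limma-trend 2 lower and 0 higher. The populations did not overlap for 5 of the 44 (2 higher and 3 lower in bottom). Over all genes tested that share was 7.22%, with 3.31% higher and 3.91% lower. Positive log2 fold changes were seen for 21 of the 44 (47.7%), against 50.1% of all genes tested, and 29 (65.9%) had the same sign in both batches, against 56.6%. The test of a batch difference called 0 members and 0 genes in all. The median log2 fold change, bottom over top, was -0.17 over the 44 and 0.00 over all genes tested. Members that passed the count filter through 1 population alone, such as Kcnj12, Kcna2 and Cacna2d2, had to differ. These counts therefore describe the 44 and not the whole family.

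**Figure D1:**
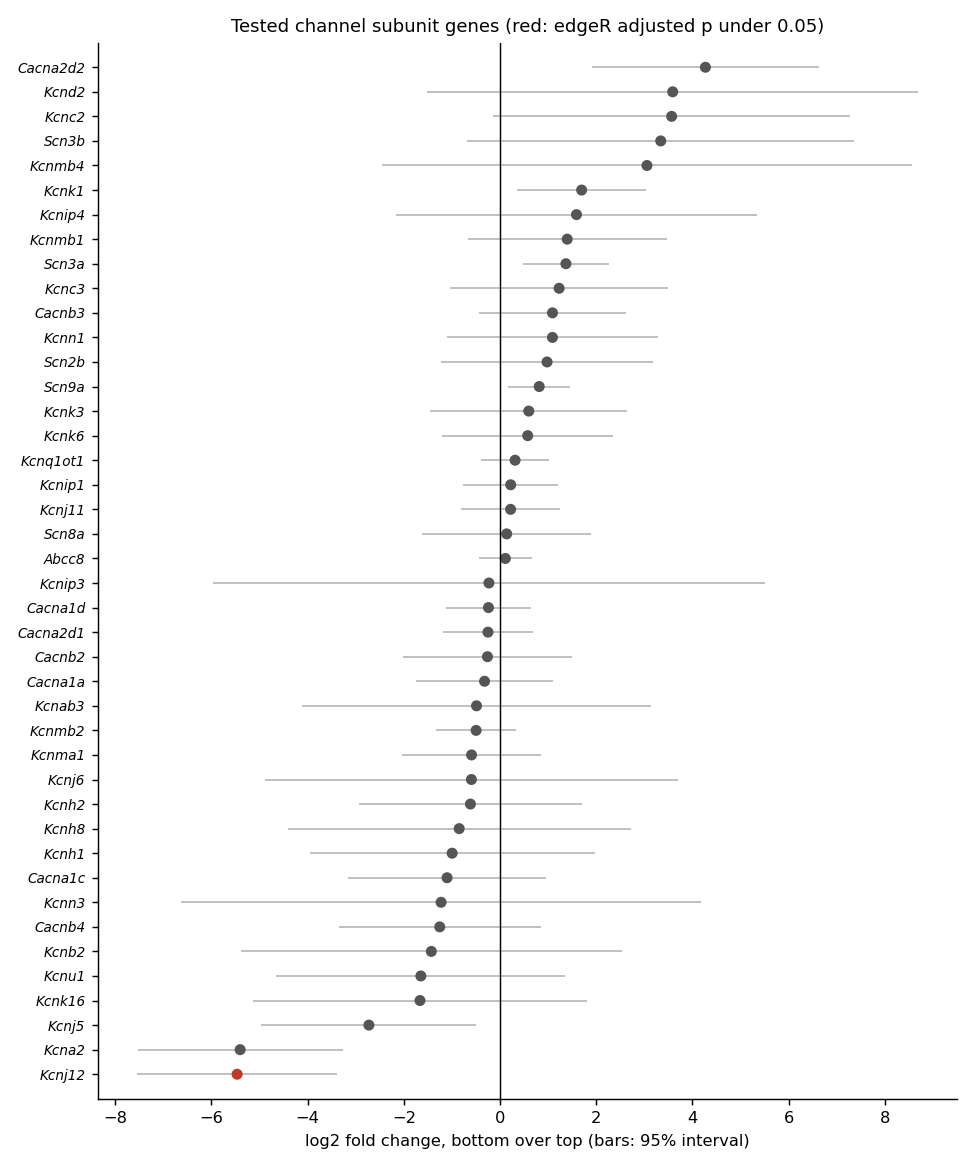
Log2 fold change, bottom over top, of tested members (x axis), ordered by value, with 95% intervals from the edgeR fit as bars. Kcnj12, in red at -5.47, passed an adjusted p of 0.05, Kcna2 lay beside it at -5.40, and Abcc8 and Kcnj11 lay near 0 at 0.11 and 0.22.

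Inward rectifiers other than the KATP channel held the lowest values relative to top. Kcnj12, a strong inward rectifier best known from heart and skeletal muscle, where it holds the resting potential, had 2, 3, 3 and 3 counts in bottom 1 to bottom 4, against 110, 123, 118 and 38 counts in top 1 to top 4. That is 0.219, 0.280, 0.316 and 0.278 CPM in bottom, against 15.8, 15.4, 14.6 and 6.03 CPM in top. Every bottom library lay far below every top library, and top 4 lay below the other top libraries. By edgeR's test (adjusted p = 0.0462, n = 4), Kcnj12 fell by 5.47 on the log2 scale in bottom (SE 0.93), which is 44.2-fold higher in top. The summed counts were 11 in bottom and 389 in top, a scaled ratio of 0.0206 with an exact 95% binomial interval of 0.0102 to 0.0373. That interval covers counting error only, since amplified reads are not independent molecules. The log2 fold change was -5.89 in batch 1 and -5.05 in batch 2. With 2 to 3 counts in each bottom library, Kcnj12 passed the count filter through top alone, so it had to differ. Without the filter its edgeR adjusted p was 0.0314. With the filter, the adjusted p lay just under the threshold. Without any 1 of the 8 libraries (top 1 to top 4, bottom 1 to bottom 4) it was 0.0832 to 0.168, with log2 fold changes of -5.77 to -5.28. It was 0.0514 with the hormone genes left out of the scaling.

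Kcnj5, which forms G-protein-gated channels that open when somatostatin or other inhibitory receptors are active, stood at 0.219, 0.374, 1.05 and 0.927 CPM in bottom, against 3.74, 7.03, 1.86 and 3.49 CPM in top. The populations did not overlap, but the values of top 3 and bottom 3 lay close to each other. Its log2 fold change of -2.73 (SE 1.00) did not pass the test (edgeR adjusted p = 0.361). Kcnj6, a partner in such channels, stood at 5.46, 1.78, 0 and 2.97 CPM in bottom, against 1.58, 1.13, 17.6 and 0.159 CPM in top. Its populations overlapped throughout, and its log2 fold change was -0.60 (SE 1.92, edgeR adjusted p = 0.956). The sign of Kcnj6 turned without top 3 (1.93) or bottom 3 (0.37).

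Kcna2, a voltage-gated potassium channel known for setting excitability in axons, had a pattern close to that of Kcnj12. It stood at 0.109, 0.0935, 0.211 and 0.185 CPM in bottom, against 6.19, 4.77, 11.3 and 4.92 CPM in top, from 6 counts in bottom and 203 in top. No library of bottom came near any of top. Kcna2 too passed the count filter through top alone, and without that filter its edgeR adjusted p was 0.1. Its log2 fold change was -5.40 (SE 0.95, 95% interval -7.54 to -3.27), and its edgeR adjusted p of 0.0515 lay just over the threshold. DESeq2 (adjusted p = 0.000144) and limma-trend (adjusted p = 0.0423) called it lower. The difference was -5.57 in batch 1 and -5.26 in batch 2.

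The start regions of these 2 genes are shown because they carried the largest falls relative to top among the 44. The RefSeq table of build GRCm38.p6 gives, for 1 annotated start each, 250 bases before to 50 after it, on the plus strand, for Kcnj12 at chr11:61065554-61065853 and for Kcna2 at chr3:107101317-107101616. That build is of the C57BL/6J strain and is not the mm9 build named by the submitters. Capitals mark E-boxes, the letters CANNTG that many basic helix-loop-helix factors bind, searched on both strands.
Kcnj12: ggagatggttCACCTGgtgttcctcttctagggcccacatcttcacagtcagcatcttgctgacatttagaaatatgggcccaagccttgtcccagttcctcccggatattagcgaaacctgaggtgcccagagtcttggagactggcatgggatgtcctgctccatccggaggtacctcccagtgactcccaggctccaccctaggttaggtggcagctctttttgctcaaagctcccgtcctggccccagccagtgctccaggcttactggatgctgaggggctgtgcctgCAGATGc
Kcna2: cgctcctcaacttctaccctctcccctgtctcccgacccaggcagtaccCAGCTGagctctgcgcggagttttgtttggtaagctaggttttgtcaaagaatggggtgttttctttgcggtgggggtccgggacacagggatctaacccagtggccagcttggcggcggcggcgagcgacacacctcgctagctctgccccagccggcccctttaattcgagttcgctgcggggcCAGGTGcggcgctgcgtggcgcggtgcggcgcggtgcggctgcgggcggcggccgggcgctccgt
Each region held 2 E-boxes, and 72.3% of the 32841 RefSeq promoters of this length held at least 1. Each also held 1 TAAT, the core letters of homeodomain sites, on either strand, as did 58.0% of all promoters at least once. GGGCGG, the GC box, was found 1 time for Kcna2 and 0 times for Kcnj12 (35.7% of all promoters). TATAAA (13.6% of all promoters) and TGACGTCA (1.79%) were in neither. The Kcna2 region held 31 CpG dinucleotides at 66.7% GC and the Kcnj12 region 4 at 57.0% GC. A match is a description of letters and not of a bound site.

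**Figure D2:**
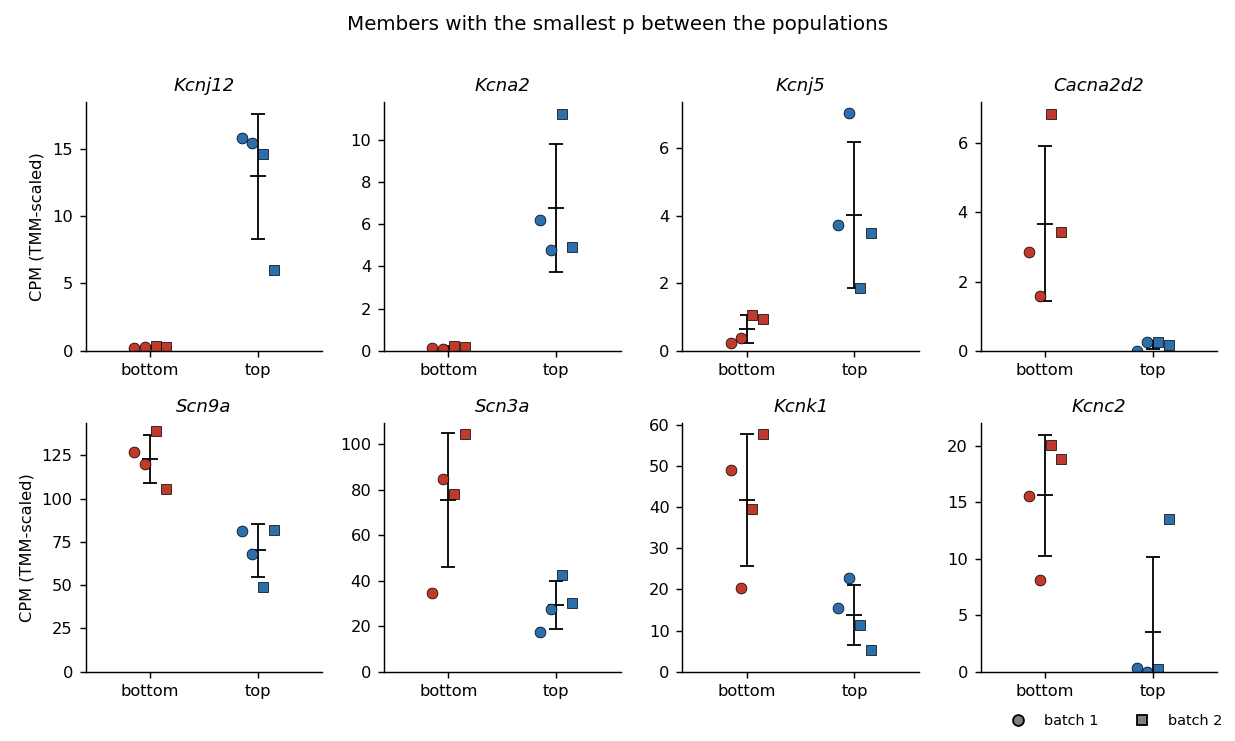
CPM after TMM scaling in every library for the 8 members with the smallest p, bottom left and top right in each panel, with circles for batch 1 and squares for batch 2. Lines show the mean with 1 SD. Kcnj12, Kcna2, Kcnj5, Cacna2d2 and Scn9a do not overlap between populations, while Scn3a, Kcnk1 and Kcnc2 do.

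Neither subunit of the beta cell KATP channel passed the test between the populations. Abcc8, the sulfonylurea receptor and target of antidiabetic drugs, stood at 421, 450, 305 and 271 CPM in bottom, against 315, 339, 399 and 259 CPM in top. The populations overlapped, with batch 1 libraries the higher ones in bottom. Its log2 fold change was 0.11 (SE 0.24, edgeR adjusted p = 0.930), with a 95% interval of -0.44 to 0.66. Kcnj11, the pore of the same channel, stood at 96.4, 56.3, 31.4 and 33.6 CPM in bottom, against 36.0, 40.9, 31.8 and 63.7 CPM in top. Bottom 1 was the highest of the 8, and the other libraries were mixed. The log2 fold change of Kcnj11 was 0.22 (SE 0.46, edgeR adjusted p = 0.927, 95% interval -0.82 to 1.26). Both genes had positive values in batch 1 (0.41 for Abcc8 and 0.99 for Kcnj11) and negative ones in batch 2 (-0.19 and -0.55). The test of that batch difference gave an adjusted p of 0.864 for Abcc8 and 0.730 for Kcnj11. The sign of Kcnj11 turned without top 1 (-0.02) or bottom 1 (-0.10).

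The pair is encoded by neighbouring genes on chromosome 7 and assembles in equal number. Per kilobase of annotated exon, Abcc8 stood at 44.7 ± 10.8 CPM per kb in bottom and 40.6 ± 7.17 in top, and Kcnj11 at 14.8 ± 8.20 in bottom and 11.7 ± 3.87 in top (SD, n = 4). In both populations the receptor transcript was above that of the pore. Summed over the 4 KATP genes, the populations overlapped at 313 to 518 CPM in bottom and 323 to 433 CPM in top. They did not overlap with plain library totals, at 386 to 507 CPM in bottom and 306 to 377 CPM in top, and overlapped again with the hormone counts left out, at 492 to 737 CPM in bottom and 535 to 651 CPM in top. The vascular KATP subunits had few counts. Kcnj8, their pore, had 0, 0, 39 and 41 counts in bottom 1 to bottom 4 and 0 in all of top. Pooled, bottom lay 19.5-fold above a floor of 3 counts over the top population. Such floor ratios pool the libraries, cover counting error only and set no lower bound on a population difference. Abcc9, their receptor, had 4, 5, 47 and 54 counts in bottom, against 5, 4, 17 and 5 in top. Both genes were thus highest in bottom 3 and bottom 4. Markers of fibroblasts, stellate cells and pericytes summed to 3.28, 181, 252 and 935 CPM in bottom 1 to bottom 4 and to 0.251 to 16.0 CPM in top. Their 9 genes were all detected in bottom, 2 of 4 tested were higher, and Col1a1 was at 0 in top. Their part in these values was not tested.

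Sodium channel pore subunits were higher in bottom by level, but none passed the test. Scn9a, a channel best known from pain-sensing neurons and also found in mouse beta cells, stood at 127, 120, 139 and 106 CPM in bottom, against 81.6, 68.2, 49.1 and 81.8 CPM in top. All bottom libraries lay above all top libraries. For Scn9a the log2 fold change was 0.81 (SE 0.29, 95% interval 0.16 to 1.46, edgeR adjusted p = 0.342), with 0.72 in batch 1 and 0.91 in batch 2. Scn3a, a sodium channel of neurons that is also found in mouse islet cells, stood at 34.5, 84.6, 78.3 and 104 CPM in bottom, against 17.3, 27.4, 42.7 and 30.3 CPM in top. Bottom 1 lay below top 3, and the other bottom libraries lay above all of top. Scn3a had a log2 fold change of 1.37 (SE 0.40, 95% interval 0.47 to 2.27, edgeR adjusted p = 0.242), while DESeq2 called it higher (adjusted p = 0.026). Scn8a, common in central neurons, stood at 2.08, 37.5, 14.9 and 18.6 CPM in bottom, against 16.5, 21.1, 14.5 and 14.6 CPM in top. It had no clear order (log2 fold change 0.14, SE 0.78, edgeR adjusted p = 0.975), while its sign turned without bottom 2 (-0.87).

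On the scale of CPM per kb, the order in both populations was Scn9a, Scn3a and Scn8a. The levels were 9.63 ± 1.10, 6.06 ± 2.37 and 1.16 in bottom, and 5.49 ± 1.21, 2.36 ± 0.840 and 1.06 in top (SD, n = 4, for the first pair). Summed over the 9 pore-forming genes, sodium channels stood at 164, 243, 284 and 250 CPM in bottom, against 116, 118, 106 and 127 CPM in top, with no overlap. With the counts of Ins1, Ins2, Iapp, Gcg, Sst, Ppy and Pyy left out of the totals, these sums were 203 to 449 CPM in bottom and 160 to 210 in top, and the populations overlapped. Delta cell markers differed in the same direction, as given above, and markers of PP and epsilon cells summed to 11400 to 92130 CPM in bottom and 1203 to 2379 CPM in top, with 2 of 3 tested genes higher. Alpha cell markers summed to 29900 to 145500 CPM in bottom and 67650 to 140200 in top, with 0 of 8 tested genes called. Of the defining markers of these cell types, Loxl4 and Ghrl were at 0 in all of top and none was at 0 in all of bottom. Yet Loxl4 had only 9, 0, 2 and 0 counts in bottom 1 to bottom 4, and Ghrl had 184, 0, 0 and 0. The part of these cell types in the sodium channel levels was not tested.

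Sodium channel beta subunits are single-pass proteins that tune gating and surface delivery. Scn3b stood at 1.20, 15.0, 6.32 and 50.7 CPM in bottom, against 8.06, 1.51, 0.247 and 0.476 CPM in top. Top 1 lay above bottom 1 and bottom 3, and bottom 4 held most of the signal (log2 fold change 3.34, SE 1.79, edgeR adjusted p = 0.598).

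Two-pore potassium channels were the other class without overlap in its sum. The 14 genes summed to 92.8, 72.3, 111 and 81.6 CPM in bottom, against 36.5, 39.8, 47.5 and 19.5 CPM in top. The populations stayed apart with plain totals and with the hormone counts left out. Yet all 4 tested genes of the class overlapped between populations. Scattered untested genes added to the bottom sums, such as Kcnk5 in bottom 1 (25.2 CPM) and Kcnk13 in bottom 3 (30.3 CPM). Kcnk1, a weakly conducting background channel found in many epithelia, stood at 49.1, 20.4, 39.6 and 57.9 CPM in bottom, against 15.4, 22.7, 11.4 and 5.40 CPM in top. Bottom 2 lay below top 2, and the other bottom libraries lay above all of top. Its log2 fold change of 1.70 (SE 0.60, 95% interval 0.35 to 3.04) did not pass the test (edgeR adjusted p = 0.342). Annotated antisense genes overlap the exons of Kcnk1, Scn9a and Cacna2d2, and whether counting used strand is not given in the sources used here, so reads of each pair may be mixed.

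Kcnk3, an acid-sensitive background channel, stood at 1.20, 28.5, 25.7 and 8.52 CPM in bottom, against 7.05, 9.92, 16.3 and 9.84 CPM in top. It varied more within bottom than between the populations (log2 fold change 0.60, SE 0.91, edgeR adjusted p = 0.897), while its sign turned without bottom 2 (-0.63). Kcnk16, a channel largely confined to the pancreas and known to limit calcium entry in beta cells, stood at 3.82, 5.89, 0 and 2.13 CPM in bottom, against 8.34, 4.14, 16.9 and 0.318 CPM in top. It was low and mixed in both (log2 fold change -1.67, SE 1.55, edgeR adjusted p = 0.810), while its sign turned without top 3 (0.30).

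**Figure D3:**
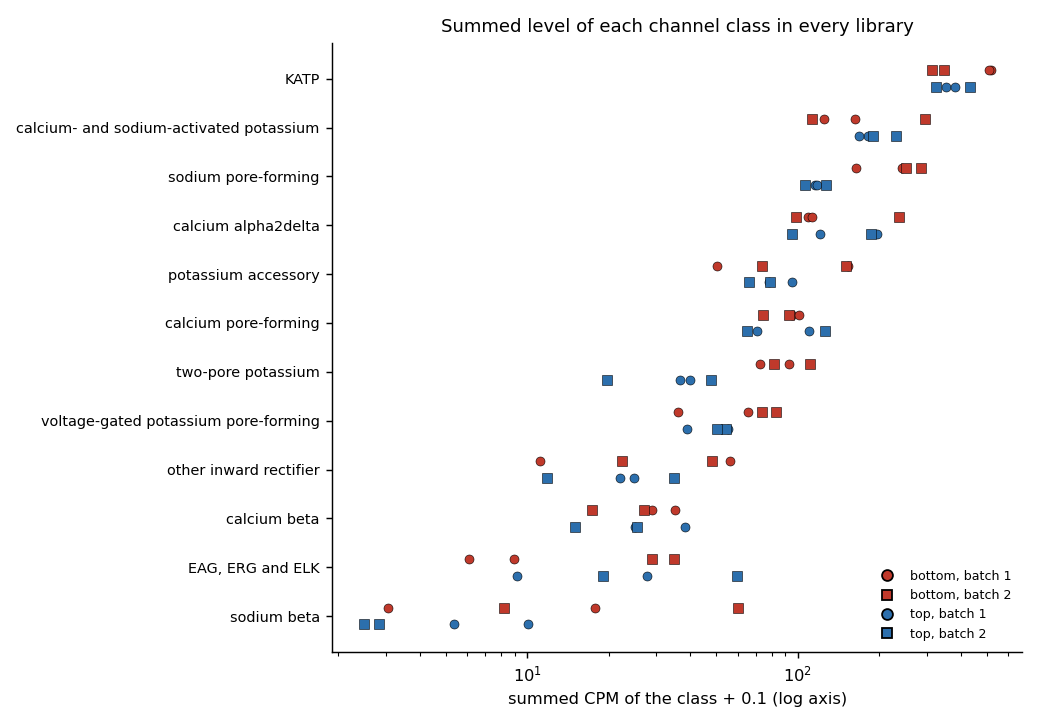
Summed CPM of 12 channel classes in every library on a log axis (0.1 added), bottom in red above top in blue in each row, circles for batch 1 and squares for batch 2. Sodium pore-forming and two-pore potassium sums lie apart (164 to 284 against 106 to 127 CPM, and 72.3 to 111 against 19.5 to 47.5 CPM), and the other classes shown overlap.

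Calcium channel pores are the route of calcium entry for secretion. Of the 10 pore genes, the 3 that were tested (Cacna1d, Cacna1c and Cacna1a) did not pass the test. Cacna1d, an L-type channel of beta cells, stood at 35.6, 86.9, 61.8 and 53.7 CPM in bottom, against 55.0, 85.8, 47.6 and 92.9 CPM in top. The libraries were intermixed (log2 fold change -0.24, SE 0.39, 95% interval -1.12 to 0.64, edgeR adjusted p = 0.904). Cacna1c, the other L-type channel of beta cells, stood at 0.437, 4.30, 2.53 and 1.48 CPM in bottom, against 5.04, 7.78, 3.22 and 3.65 CPM in top. Bottom 2 lay above top 3 and top 4, and the other bottom libraries lay below all of top (log2 fold change -1.10, SE 0.92, edgeR adjusted p = 0.786). Cacna1a, the P/Q-type pore, stood at 9.83, 8.41, 21.5 and 12.6 CPM in bottom, against 9.35, 15.2, 10.1 and 29.5 CPM in top, again intermixed (log2 fold change -0.32, SE 0.63, edgeR adjusted p = 0.924). The sign of Cacna1a turned without top 4 (0.0038). On the scale of CPM per kb, Cacna1d led in both populations, at 4.72 ± 1.69 in bottom and 5.57 ± 1.77 in top (SD, n = 4). Cacna1a followed at 1.15 in bottom and 1.41 in top, and Cacna1c at 0.103 in bottom and 0.232 in top.

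The low-voltage-activated and R-type pores were uneven between libraries, and Cacna1h, Cacna1i and Cacna1e were seen in bottom alone, with 211, 342 and 9 counts in all. Of the other pore genes, 1 was seen in top alone. Counts in bottom alone were found for 17 of the 136 members and 1517 of all 23366 genes. Counts in top alone were found for 8 members and 793 of all genes. Cacna1h, a T-type channel, had 105, 0, 51 and 55 counts in bottom and 0 in every top library. Pooled, that is 51.3-fold above the 3-count floor, with bottom 2 at 0. Cacna1i, another T-type channel, was singled out after its values were seen. It had 313, 2, 15 and 12 counts in bottom and 0 in top. Pooled, that is 83.2-fold above the 3-count floor, with 92.2% of its summed CPM in bottom 1. Cacna1g, the remaining T-type channel, had 34, 7, 1 and 1 counts in bottom, against 6, 12, 5 and 0 in top. Cacna1e, the R-type pore, had 9 counts in bottom 2 and 0 in the other 7 libraries. None of these 4 genes passed the count filter, so they have no test.

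Among auxiliary calcium channel subunits, alpha2delta proteins carry the pore to the surface. Cacna2d1 was the abundant one, at 106, 98.9, 228 and 74.1 CPM in bottom, against 120, 194, 93.5 and 186 CPM in top. Bottom 3 was the highest of all libraries and bottom 4 the lowest (log2 fold change -0.25, SE 0.41, edgeR adjusted p = 0.904). Cacna2d2 was scarce, at 2.84, 1.59, 6.85 and 3.43 CPM in bottom, against 0, 0.251, 0.247 and 0.159 CPM in top. The populations did not overlap, with 145 counts in bottom and 5 in top. Its log2 fold change of 4.27 (SE 1.05, 95% interval 1.92 to 6.63) was the largest positive one of the 44 and did not pass the test (edgeR adjusted p = 0.155). With 0 to 2 counts in each top library, Cacna2d2 passed the count filter through bottom alone, so it had to differ. Without that filter its edgeR adjusted p was 0.351.

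Beta subunits bind inside the cell and set the gating of the pore. Cacnb3, a beta subunit that restrains calcium oscillations in mouse beta cells, stood at 21.7, 22.3, 7.90 and 11.2 CPM in bottom, against 4.46, 11.4, 5.19 and 6.51 CPM in top. The batch 1 libraries of bottom were the highest, and top 2 lay above both of the others (log2 fold change 1.09, SE 0.68, edgeR adjusted p = 0.673). Cacnb2 stood at 4.48, 4.58, 8.22 and 8.71 CPM in bottom, against 6.19, 6.78, 3.09 and 14.0 CPM in top, with no order between populations (log2 fold change -0.26, SE 0.79, edgeR adjusted p = 0.952), while its sign turned without top 4 (0.18). Gamma subunits, some of which also serve glutamate receptors, were almost absent. None of the 8 was tested, 3 had 0 counts everywhere, and Cacng4 had 31 counts in bottom 2, 4 in bottom 3 and 0 elsewhere.

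Voltage-gated potassium pores repolarise the cell after each action potential. Kcnb2, a delayed rectifier, stood at 0, 1.78, 0 and 5.84 CPM in bottom, against 5.61, 5.40, 6.93 and 0.159 CPM in top. Top 4 and bottom 4 each went against their populations (log2 fold change -1.43, SE 1.77, edgeR adjusted p = 0.873).

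Kcnc2 and Kcnd2 had high fold changes that 1 top library contradicted. Kcnc2, a fast delayed rectifier, stood at 15.5, 8.13, 20.01 and 18.8 CPM in bottom, against 0.288, 0, 0.247 and 13.5 CPM in top. Only top 4 reached the bottom range (log2 fold change 3.57, SE 1.65, edgeR adjusted p = 0.505). Kcnd2, an A-type channel that inactivates quickly, stood at 2.08, 14.6, 18.1 and 12.3 CPM in bottom, against 0, 9.54, 0 and 0.159 CPM in top. Bottom 1 lay below top 2 (log2 fold change 3.59, SE 2.28, edgeR adjusted p = 0.678). Kcnd3 had 0 counts in all 8 libraries, which allows up to 0.0747 CPM in bottom and 0.102 CPM in top. Kcnc1 had 7, 0, 0 and 7 counts in bottom and 2, 6, 5 and 0 in top.

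Of the EAG, ERG and ELK channels, Kcnh2, known for cardiac repolarisation, stood at 1.09, 1.12, 8.53 and 6.02 CPM in bottom, against 2.01, 6.78, 2.23 and 6.67 CPM in top. The libraries overlapped (log2 fold change -0.62, SE 1.03, edgeR adjusted p = 0.906), while the sign turned without top 2 (0.05). Kcnh6, an ERG channel whose loss impairs insulin secretion in mice, had 0, 5, 0 and 0 counts in bottom, against 3, 55, 37 and 8 in top. It was detected in all 4 top libraries and in 1 of bottom, and it did not pass the count filter. The scaled ratio of its counts was 0.0354 (exact 95% binomial interval 0.0113 to 0.0854, counting error only).

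Kcnq1, a gene linked to type 2 diabetes risk in people, had 6, 0, 1 and 0 counts in bottom and 16, 0, 0 and 0 in top. Kcnq1ot1, the long noncoding RNA transcribed against Kcnq1 on chromosome 7, was the member with the most counts and is not a channel subunit. It stood at 2418, 1068, 1904 and 1345 CPM in bottom, against 1722, 934, 1645 and 1119 CPM in top. The populations overlapped (log2 fold change 0.31, SE 0.31, 95% interval -0.39 to 1.02, edgeR adjusted p = 0.830). Its annotated exons span 93.1 kb, and per length it stood at 18.1 ± 6.45 CPM per kb in bottom and 14.6 ± 4.17 in top (SD, n = 4), below Abcc8. Its exons overlap those of Kcnq1 on the opposite strand.

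Calcium-activated potassium channels ended the list of repolarising channels. Kcnma1, the pore of the large-conductance channel, stood at 16.2, 22.5, 165 and 28.4 CPM in bottom, against 77.7, 28.9, 102 and 58.8 CPM in top. Bottom 3 was the highest of all, and the other bottom libraries lay below every top library. The log2 fold change of Kcnma1 was -0.59 (SE 0.65, edgeR adjusted p = 0.853). Without bottom 3 the log2 fold change was -1.49 (edgeR adjusted p = 0.403). Kcnmb2, a beta subunit that makes this channel inactivate, stood at 70.9, 41.5, 60.0 and 56.2 CPM in bottom, against 75.8, 110, 44.3 and 96.2 CPM in top. The populations overlapped (log2 fold change -0.50, SE 0.37, edgeR adjusted p = 0.734). Kcnmb2 stood at 18.3 ± 3.89 CPM per kb in bottom and 26.1 ± 9.09 in top, next to Abcc8 among the tested channel genes in top.

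The small-conductance channel Kcnn3 stood at 0.328, 32.3, 0.527 and 0.371 CPM in bottom, against 10.7, 1.76, 15.1 and 0 CPM in top. Bottom 2 alone held nearly all of the bottom signal (log2 fold change -1.23, SE 2.41, edgeR adjusted p = 0.924), while the sign turned without top 3 (1.92) or bottom 4 (0.0083). Kcnn4, the intermediate-conductance channel of epithelia and blood cells, had 25, 2, 6 and 25 counts in bottom, against 1, 2, 0 and 0 in top, and did not pass the filter. Its scaled ratio was 14.1 (exact 95% binomial interval 4.60 to 70.4, counting error only).

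Kcnip1, a calcium-binding partner of A-type channels, had the most counts among the 13 potassium channel accessory subunits. It stood at 39.0, 104, 46.1 and 129 CPM in bottom, against 87.9, 63.2, 66.3 and 55.4 CPM in top. Bottom libraries lay both above and below all of top (log2 fold change 0.22, SE 0.44, 95% interval -0.77 to 1.21, edgeR adjusted p = 0.924). Its sign turned without bottom 2 (-0.01) or bottom 4 (-0.21).

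**Figure D4:**
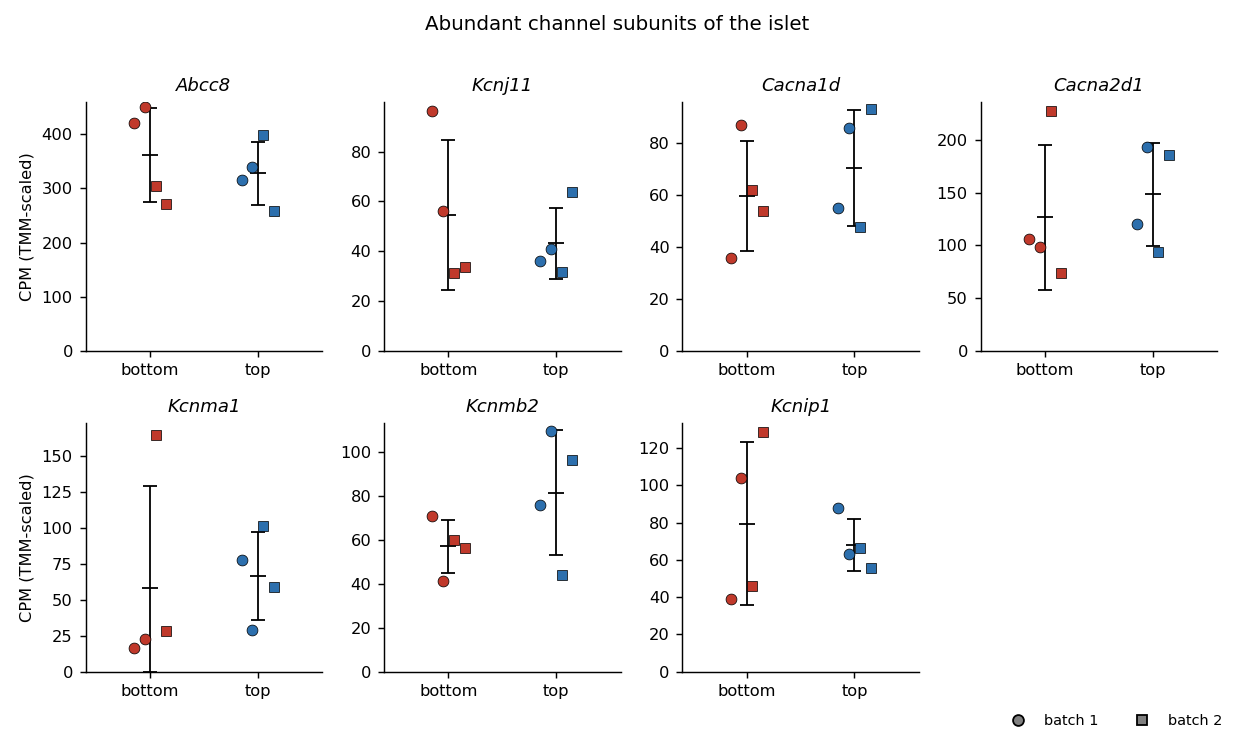
CPM after TMM scaling in every library for 7 abundant members, bottom left and top right in each panel, with circles for batch 1 and squares for batch 2. Lines show the mean with 1 SD, drawn to 0 where the SD exceeds the mean. All 7 overlap between populations, and bottom 3 stands at 165 CPM for Kcnma1.

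Many members below the filter were seen in 1 library or a few. Of the 64 untested members with counts, 10 had them in 1 library, 18 in 2 and 36 in 3 or more. At least 30 counts in all were reached by 30, of which 25 had over 50% of their summed CPM in 1 library, 27 peaking in a bottom library and 3 in a top library. Those shares were 83.3% in 1 library and 90% peaking in bottom, against 71.4% and 72.8% of all 2745 untested genes with at least 30 counts, so the lean to bottom and to single libraries was seen over all such genes. Of the 44 tested members 13.6% were that uneven, against 7.35% of all genes tested. The following were singled out after their values were seen. Kcnj16, an inward rectifier of transporting epithelia, had 444, 5, 0 and 4 counts in bottom, against 0, 2, 0 and 4 in top. Kcnk5, a two-pore channel of epithelia, had 231, 95, 1 and 2 counts in bottom, against 9, 0, 0 and 0 in top. Both peaked in bottom 1. Intestinal epithelial markers summed to 30040, 7123, 405 and 205 CPM in bottom 1 to bottom 4 and to 155 to 1987 CPM in top, with 0 of 7 tested genes called and Muc2 at 0 in top. Epcam held most of the sums in bottom 3 and bottom 4 (364 and 191 CPM). There Fabp1, Apoa1 and Lgals4 stood at 0.556 to 1.48 CPM.

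Other scattered members peaked in batch 2 of bottom. Kcnj2, the classical strong inward rectifier, had 0, 69, 124 and 354 counts in bottom, against 0, 1, 5 and 0 in top. Kcnk13, a two-pore channel described in microglia, had 0, 36, 288 and 65 counts in bottom and 0 in top. Pooled, that is 94.7-fold above the 3-count floor, with 76.4% of its summed CPM in bottom 3. Scn7a, a sodium-sensing relative of the sodium channels found in glia, had 1, 1, 318 and 203 counts in bottom, against 0, 1, 0 and 0 in top. Kcne4, a small inhibitory accessory subunit, had 0, 0, 110 and 35 counts in bottom and 0 in top. Beside the fibroblast, stellate and pericyte sums given above, these 4 genes were low or at 0 in bottom 1 (3.28 CPM), while in bottom 2 (181 CPM) Scn7a had 1 count and Kcne4 had 0. Kcnj2 peaked in bottom 4 (935 CPM), and Kcnk13, Scn7a and Kcne4 peaked in bottom 3 (252 CPM). Schwann cell and neuronal markers summed to 249 to 374 CPM in bottom and 216 to 469 CPM in top, with Cdh19 at 0 in bottom and Sox10 at 0 in top. Endothelial markers summed to 8.30 to 205 CPM in bottom and 0.124 to 8.26 CPM in top, acinar ones to 123 to 1562 in bottom and 17.2 to 245 in top, and duct ones to 276 to 764 in bottom and 139 to 396 in top. Leukocyte markers summed to 0.437 to 4.53 CPM in bottom and 4.39 to 14.2 CPM in top. The top sums were mostly Cd79a (13.8 CPM in top 1), while Ptprc went the other way, with 34 counts in bottom and 9 in top. None of the tested genes of these 5 lists was called (1 endothelial, 7 acinar, 6 duct, 1 leukocyte and 5 Schwann cell and neuronal genes). The part of these cells in the scattered counts was not tested.

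**Figure D5:**
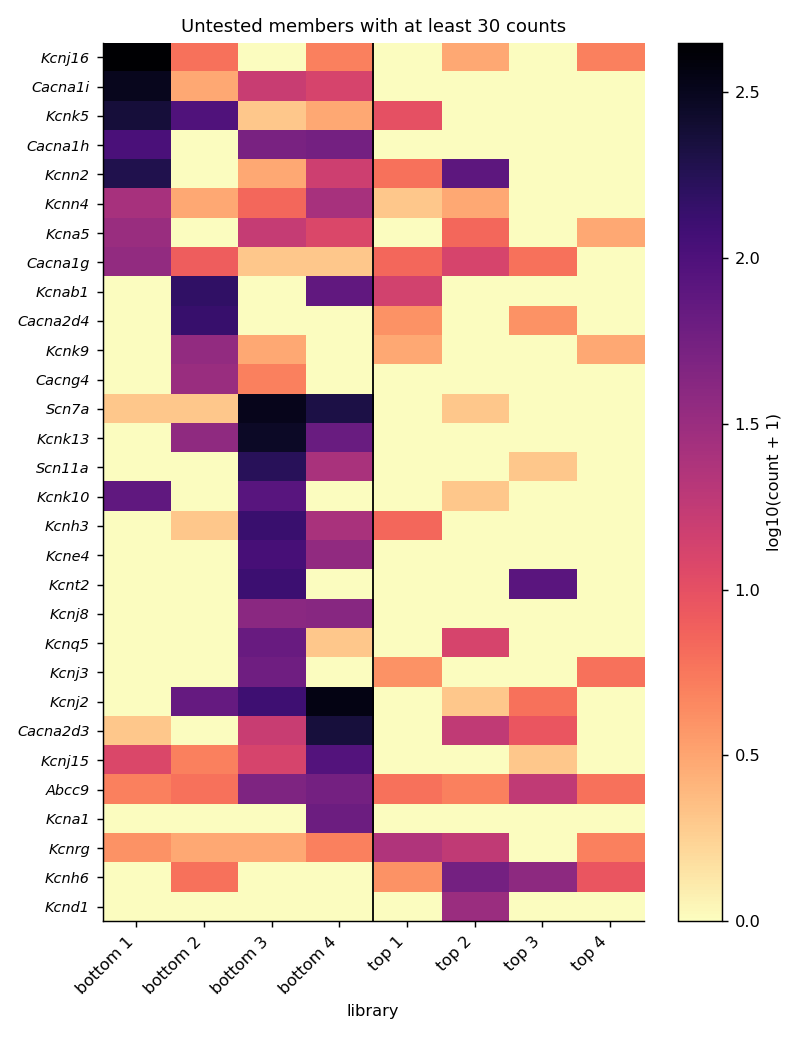
Counts, as log10 of the count plus 1 in colour, of the 30 untested members with at least 30 counts in all (rows) in each library (columns), bottom left of the dividing line and top right. Rows follow the library in which the member peaked, 27 times a bottom library, and most rows are dark in 1 or a few columns.

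Genes outside the rule that shape the same currents were described from a list of 48 genes. Of these, 27 were tested, and 0 were higher and 0 lower at an edgeR adjusted p under 0.05. Unadjusted p-values under 0.05 were seen for 4 of the 27 (14.8%), against 10.3% of all genes tested. The populations did not overlap for 3 of the 27 (11.1%), against 7.22% of all genes tested. Those 3 are the genes described here. The median log2 fold change was 0.30 over the 27, and 0.00 over all genes tested. Trpm5, a calcium-activated cation channel of beta cells and taste cells, stood at 13.3, 1.12, 0.421 and 8.90 CPM in bottom, against 125, 167, 81.7 and 92.7 CPM in top. The populations were far apart, yet the log2 fold change of -4.28 (SE 0.93) had an edgeR adjusted p of 0.104. Dpp6, an accessory subunit of A-type channels, stood at 28.5, 15.1, 31.4 and 41.8 CPM in bottom, against 3.45, 3.39, 14.0 and 11.3 CPM in top, also without overlap (log2 fold change 2.09, SE 0.58, edgeR adjusted p = 0.214). Unc80, part of the sodium leak channel complex, stood at 72.1, 132, 136 and 119 CPM in bottom, against 166, 179, 160 and 197 CPM in top, the last without overlap (log2 fold change -0.62, SE 0.28, edgeR adjusted p = 0.487).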

How the data were processed

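RNA counts of 8 libraries were analysed. The authors deposited expected counts per gene, which RSEM estimates by dividing reads that match several genes, so close paralogs are less certain. Per the submitters' processing notes, RSEM, edgeR and build mm9 were used. Which aligner and annotation were used is not given in the sources used here. Of all values 34.8% were not whole, and all were rounded. With edgeR 4.0.16 in R 4.3.3, genes were filtered by filterByExpr (11721 kept), scaled by TMM, and tested by the quasi-likelihood test of bottom against top with a batch term, and Benjamini-Hochberg adjustment ran over all genes tested (threshold 0.05). Log2 fold changes are bottom over top. The common biological coefficient of variation was 0.806. DESeq2 1.42.0, limma 3.58.1, other scalings and filters, a replicate block, single batches and omission of each library were alternatives. Libraries of 1 population and batch differed beyond counting noise (chi-square per degree of freedom of at least 44.1). Exon lengths came from GENCODE M21 (GRCm38), used for lengths and names only, and 17 of 44 tested members overlap exons of another gene there. All 136 members were matched. Named were the called member, the 12 smallest p, the 12 highest CPM and a list of 33 channels of islet cells, and some of these are not reported here. The members, lists and this rule were chosen with earlier results of these data known.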

Additional observations from a re-analysis of the deposited data

Results flagged for a closer look

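Values were examined in 112 groups of 4 libraries, and 14 (12.5%) had a library whose gap to the others exceeded Dixon's 95% critical value. Chance flags about 1 in 20 groups of normally distributed values, and that rate does not apply to sparse counts, where 3 libraries at 0 and 1 above it exceed the critical value by construction, as for Cacna1e and Kcnh6 in bottom and Kcnq1 in top. In bottom, Kcnma1 stood at 165 CPM in bottom 3, against 16.2 to 28.4 CPM in the other bottom libraries, and Kcnn3 at 32.3 CPM in bottom 2, against 0.328 to 0.527 CPM. The summed alpha2delta subunits of calcium channels stood at 236 CPM in bottom 3, against 98.3 to 113 CPM. Cacna1g stood at 3.71 CPM in bottom 1, Cacng4 at 2.90 CPM and Cacna1e at 0.841 CPM in bottom 2, Kcnh6 at 0.467 CPM in bottom 2 and Kcnq1 at 0.655 CPM in bottom 1. In top, Kcnj12 was low in top 4, at 6.03 CPM against 14.6 to 15.8 CPM, still above every bottom library. Kcnc2 was high in top 4 at 13.5 CPM, Kcnd2 in top 2 at 9.54 CPM, Kcnj6 in top 3 at 17.6 CPM, Scn3b in top 1 at 8.06 CPM and Kcnq1 in top 1 at 2.30 CPM.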

How the results depend on the processing

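Of 29 named tested members, alternatives gave 501 values of the same direction and call, 34 of the other sign, 12 that lost a call (all Kcnj12) and 3 that gained one (Scn3a and Kcna2 with DESeq2, Kcna2 with limma-trend). Kcnj12 was called by DESeq2 and limma-trend with Kcna2 (2 lower), by neither batch alone, and was lost with the hormone genes left out and in all 8 omissions (0 lower). DESeq2 called 1 member higher. Called genes in all were 52, with 204 without the filter, 589 by DESeq2, 137 by limma-trend, 32 without the batch term, 2 in batch 1 alone, 2 in batch 2 alone and 8 to 60 over the omissions (12, 8, 28 and 14 without top 1 to top 4, 33, 23 and 11 without bottom 2 to bottom 4). In batch 1 or batch 2 alone 0 members were lower. The replicate block, made of batch and title number, called 0 genes and 0 members and left the libraries numbered 1 as the only pairs. Deviations of those pairs correlated at 0.0926 in batch 1 and -0.00134 in batch 2, so the numbers are not taken as pairs. Under the block the sign turned for Cacna2d1 (0.55), Cacnb2 (0.47), Cacna1a (0.58), Kcnmb2 (0.17), Kcnh2 (0.56), Kcnip1 (-0.85), Scn8a (-1.45) and Kcnk3 (-0.89), as log2 fold changes. It turned in batch 1 alone for Kcnn3 (1.38), Kcnj6 (1.38) and Kcnip1 (-0.10), in batch 2 alone for Cacna2d1 (0.12), Cacnb2 (0.0013), Kcnma1 (0.28), Kcnh2 (0.72), Abcc8 (-0.18) and Kcnj11 (-0.54), with limma-trend for Scn8a (-0.41) and Kcnk3 (-0.10) and without the batch term for Kcnn3 (0.29). Omitting 1 library turned it, with the range over the omissions, for Cacnb2 (-0.61 to 0.18, without top 4), Cacna1a (-0.59 to 0.0038, without top 4), Kcnn3 (-4.07 to 1.92, without top 3 or bottom 4), Kcnh2 (-1.22 to 0.049, without top 2), Kcnj11 (-0.10 to 0.58, without top 1 or bottom 1), Kcnj6 (-1.41 to 1.93, without top 3 or bottom 3), Kcnip1 (-0.21 to 0.49, without bottom 2 or bottom 4), Scn8a (-0.87 to 0.52, without bottom 2), Kcnk16 (-2.21 to 0.30, without top 3) and Kcnk3 (-0.63 to 0.95, without bottom 2). None of these members was called. The causes were not tested. Leaving hormone counts out of the totals raises every CPM by construction, and it moved these mean sums by over 1 SD, in CPM: Kcnq1ot1 (2419 in bottom and 2172 in top), calcium alpha2delta (207 in bottom and 243 in top), calcium beta (38.7 in bottom and 42.1 in top), calcium pore-forming (132 in bottom and 151 in top), calcium- and sodium-activated potassium (308 in top), KATP (605 in bottom and 598 in top), other inward rectifier (37.1 in top), potassium accessory (128 in top), sodium pore-forming (350 in bottom and 188 in top), two-pore potassium (131 in bottom and 57.3 in top) and voltage-gated potassium pore-forming (96.6 in bottom and 79.6 in top). With plain totals the top mean of sodium pores was 104 CPM. Members with few counts are limited by depth, since 3 counts over a population equal 0.0747 CPM in bottom and 0.102 CPM in top.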
